A study of Caenorhabditis elegans with 40 samples.

Results

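F44E5.4, F44E5.5 and hsp-70 are the heat-inducible cytosolic HSP70 genes of Caenorhabditis elegans examined here. They were chosen by name, with earlier results of these data known, and make up 3 of the 19973 nuclear protein-coding genes of the annotation. Binding of HSF-1 at them was read from every peak summit within 1000 bp of one of their annotated transcription start sites. HSF-1 was precipitated from fixed chromatin with an antibody to GFP and the DNA was sequenced (ChIP-seq), in young adults whose hsf-1 gene carried a degron and GFP. All groups shared this tagged allele (hsf-1::aid::gfp) and the unc-119(ed3) allele. The soma strain, JTL611, carried ieSi57, which drives the auxin receptor TIR1 from the eft-3 promoter, and the germline strain, JTL621, carried ieSi38, which drives TIR1 from the sun-1 promoter. Auxin could thus remove HSF-1 only where the promoter in question was active. Animals of each strain spent 2 h on auxin plates (depletion) or ethanol plates (control) and were collected at 20 °C, or after 30 min in a water bath at 34 °C. This gave 8 HSF-1 ChIP groups of 2 libraries, 16 of the 40 libraries described. The RNA polymerase II ChIP libraries and the inputs were not analysed here.

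The values were lists of HSF-1 summits common to the control animals of the strains, 500 at 20 °C and 441 after heat shock, and 6 lists that place summits in classes. The soma class holds summits that the authors listed with a region of HSF-1 signal lost when the soma was depleted, the germline class holds those lost in the germline, and the shared class those with a lost region in each. A summit of the common lists that stands in none of the 6 lists is called unclassed. None of the lists held a value per library, so depth and the spread between replicates are unknown. The genes therefore have 1 value at each temperature, and no test was made. Whole animals were used, so a class says in which depletion the signal fell and not which cells were bound.

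HSP70 proteins are chaperones that bind exposed hydrophobic stretches of unfolded proteins and release them in a cycle driven by ATP. J-domain proteins deliver clients and stimulate ATP hydrolysis, and nucleotide exchange factors such as HSP110 and BAG domain proteins reset the cycle. HSF-1 is the master activator of heat shock genes across animals. On heating it forms trimers that bind heat shock elements in the promoters of chaperone genes and activate their transcription. In C. elegans hsp-1 supplies the constitutive cytosolic HSP70, while hsp-70 and the F44E5 pair are known for strong induction by heat.

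The 3 genes lay at 2 loci and had similar gene structures. F44E5.4 (WBGene00009691, chromosome II, 11757107 to 11759311, minus strand) and F44E5.5 (WBGene00009692, chromosome II, 11759662 to 11761861, plus strand) are transcribed away from each other. The gap between their start sites was 350 bp. Each was annotated with 1 transcript, 2 exons and a single intron of 109 bp, and each had a first coding exon of 75 nt and a second of 1860 nt. Their predicted proteins were thus of equal length, at 645 residues. The genes are known as near-identical copies, so reads from their bodies may be uncertain between them, and a summit in the gap cannot be given to either gene. The gene hsp-70 (WBGene00002026, chromosome I, 9320325 to 9322519, minus strand) had 3 exons and a predicted protein of 643 residues. Its first coding exon was also 75 nt long, its introns measured 77 and 61 bp, and the remaining coding sequence was divided into exons of 999 and 855 nt. Gene lengths were 2205 bp for F44E5.4, 2200 bp for F44E5.5 and 2195 bp for hsp-70. The constitutive gene hsp-1 differed in structure, with 4 exons, a first coding exon of 205 nt and a predicted protein of 640 residues.

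The surroundings of the loci differed. No protein-coding gene other than F44E5.4 and F44E5.5 had a start site within 1000 bp of their summit, and the next one, that of F44E5.2, was 7292 bp from the summit at 20 °C. The gene hsp-70 lies inside intron 7 of uggt-2, which encodes a homologue of the glucosyltransferase that marks misfolded glycoproteins in the endoplasmic reticulum. That gene runs on the plus strand from 9317713 to 9327279, and none of its 23 exons overlapped hsp-70. The hsp-70 summits were therefore in intronic sequence of uggt-2 as well as in the promoter of hsp-70. The uggt-2 start site was 4901 bp from the summit at 20 °C.

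Each of the 3 genes had a common summit within 1000 bp of its start site at 20 °C and after heat shock. F44E5.4 and F44E5.5 were counted by the same summit, so the 3 genes stand for 2 bound sites. Such a summit lay near 254 of all 19973 genes (1.27%) at 20 °C and 161 (0.806%) after heat shock. As the 3 genes were chosen with earlier results of these data known, setting them beside these shares is a description only. At 20 °C F44E5.4 and F44E5.5 were in the shared class, as were 110 genes in all (0.551%). The hsp-70 summit was unclassed at 20 °C, as were summits of 14 genes in all (0.0701%). Heat-shocked animals had all 3 genes in the soma class, which then held 71 genes (0.355%). No summit of the germline class lay at any of the 3 genes, while 104 genes (0.521%) had one at 20 °C and 27 (0.135%) after heat shock. The 2 loci thus differed by listed class at 20 °C and had the same class after heat shock. Classes rest on the listed regions, and whether these were called with the same settings at both temperatures is not stated. The hsp-70 summit had a low peak score at 20 °C (93.3, rank 411 of 500), and whether this bears on its lack of a class was not tested. Of the 133 genes with a common summit at both temperatures (0.666% of all), 44 (33.1%) moved from the shared class to the soma class, among them the F44E5 pair. The move from unclassed to soma was made by 1 of the 133 (0.752%), which was hsp-70.

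**Figure D1:**
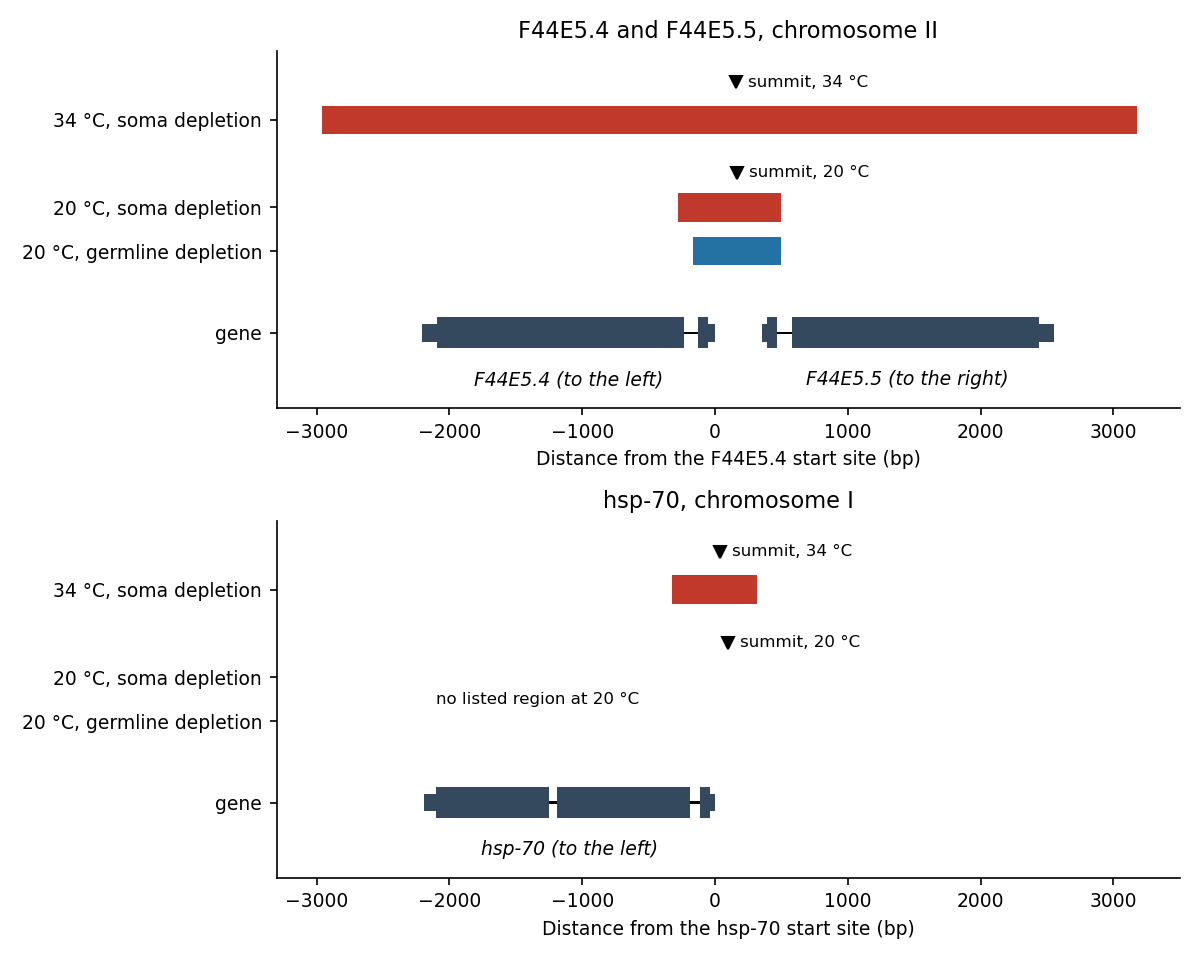
Maps of the F44E5.4 and F44E5.5 locus and of the hsp-70 locus, with distance in bp from the start site of F44E5.4 or hsp-70 on the horizontal axis. Tall boxes are coding sequence, low boxes untranslated exon parts, triangles summits and bars the listed regions that lost HSF-1 signal on depletion (red in the soma, blue in the germline). The soma region of the F44E5 pair spans 775 bp at 20 °C and 6137 bp at 34 °C, and hsp-70 has a region only at 34 °C.

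At 20 °C the shared summit of F44E5.4 and F44E5.5 lay at position 11759480, 169 bp upstream of the F44E5.4 start site and 182 bp upstream of that of F44E5.5. In the deposited coordinates it stood close to the middle of the gap between the genes. The fit of these coordinates to start sites was not resolved on chromosome II, and the distances at this locus rest on it. After heat shock it lay at 11759473, 162 and 189 bp upstream, a shift of 7 bp. Over the 350 pairs of nearest summits within 100 bp of each other at the 2 temperatures, the median shift was 6 bp. The position was thus about as stable as that of the typical summit. Summits between divergent start sites were common: 52 of 190 summits near a start site at 20 °C (27.4%) and 34 of 129 after heat shock (26.4%) had a start site on each side within 1000 bp. Of the soma-class summits at 34 °C, 23 of 48 did (47.9%). Against all common summits the site was isolated, with the next summit 163002 bp away at 20 °C and 213994 bp away after heat shock. The median over all summits was 20135 bp at 20 °C and 14560 bp after heat shock. Within the shared class at 20 °C the median was 14662 bp and the upper quartile 83512 bp, below the distance at this site. Within the soma class at 34 °C they were 142168.5 and 343020.5 bp. The distance after heat shock was thus not unusual for its class. At 20 °C the name of the F44E5 summit carried a letter, which MACS2 adds where a peak holds more than 1 summit. The names of 167 of the 500 summits did so. Any further summit of that peak was not in the common list, so the distances do not show that HSF-1 bound at a single point.

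The F44E5 summit had one of the higher peak scores in each list, counting ranks from the highest score. The score is the value of each peak in the authors' lists, where the peak names are those of the soma strain. At 20 °C that of the F44E5 summit was 25068.3, rank 30 of 500 summits and rank 6 of the 190 near a start site. The median of all summits was 470.5 and that of the shared class 2078.7. After heat shock it was 55981, rank 34 of 441 summits and rank 7 of 129 near a start site, against a median of 2884 over all summits. Within the 64 summits of the soma class it had the highest score after heat shock, where the class median was 282.9. What the score is relative to is not stated, so the values at 20 °C and 34 °C were not compared with each other.

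**Figure D2:**
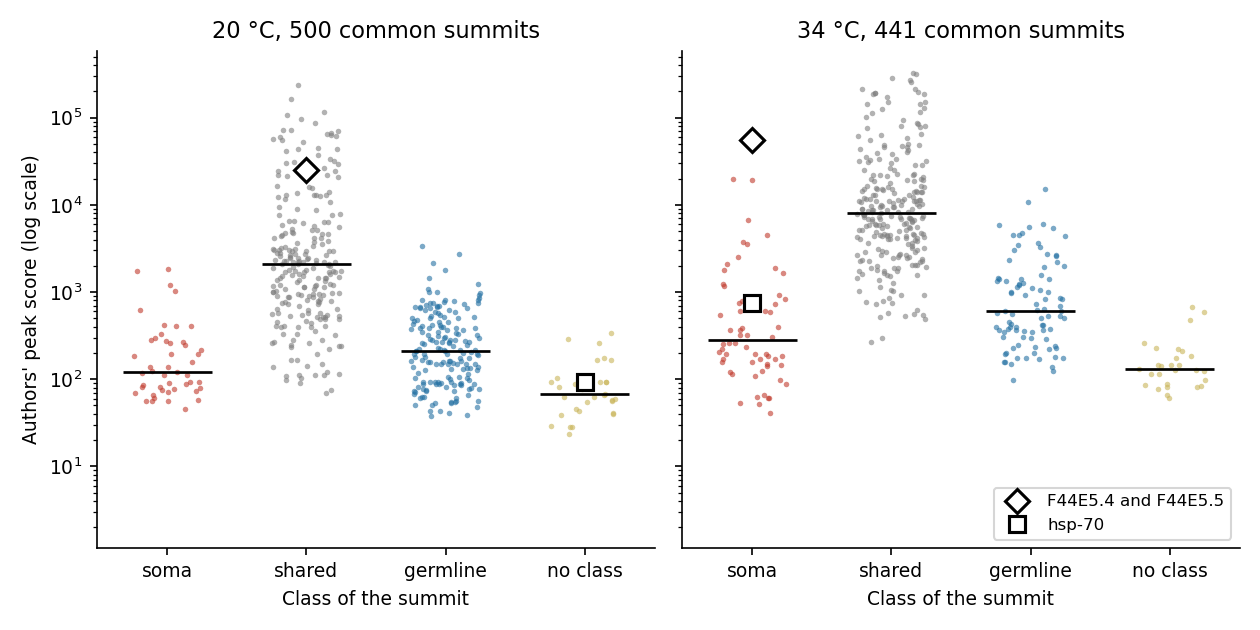
Authors' peak score of every common summit (vertical axis, log scale, no unit) by class at 20 °C and 34 °C. Each point is a summit and horizontal bars are class medians. The F44E5.4 and F44E5.5 summit (diamond) has a score of 25068.3 in the shared class at 20 °C and 55981, the highest of the soma class, at 34 °C. The hsp-70 summit (square) has 93.3 among the unclassed summits and 747.7 in the soma class.

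Shared-class summits have a differential score for each depletion, which is headed as the negative logarithm of a p-value. At 20 °C the soma score of the F44E5 summit was 807.4, rank 2 of the 242 peaks of the class, whose median was 30.6. Its germline score was 75.4, rank 202 of 242, against a median of 340.7. The soma score was thus 10.7 times the germline score, the highest ratio of the class, whose median ratio was 0.0748. In 15 of the 242 peaks the soma score exceeded the germline score, and 13 of these 15 lay near a start site. Over the 76 peaks near a start site the median ratio was 0.300 and the median germline score 117.2. The next highest ratio was 10.1, at R107.5 on chromosome III, and the third was 3.79. Ratios were 2.92 and 2.78 at the 2 sites of hsp-16.1 with hsp-16.48, but 0.534 at hsp-90 and 0.234 at hsp-60. The depletions were made in different strains, and the 2 scores come from separate comparisons, so a ratio ranks peaks within the class and does not measure shares of binding. By class the F44E5 promoter was shared at 20 °C, and by score it stood at the soma end of that class.

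**Figure D3:**
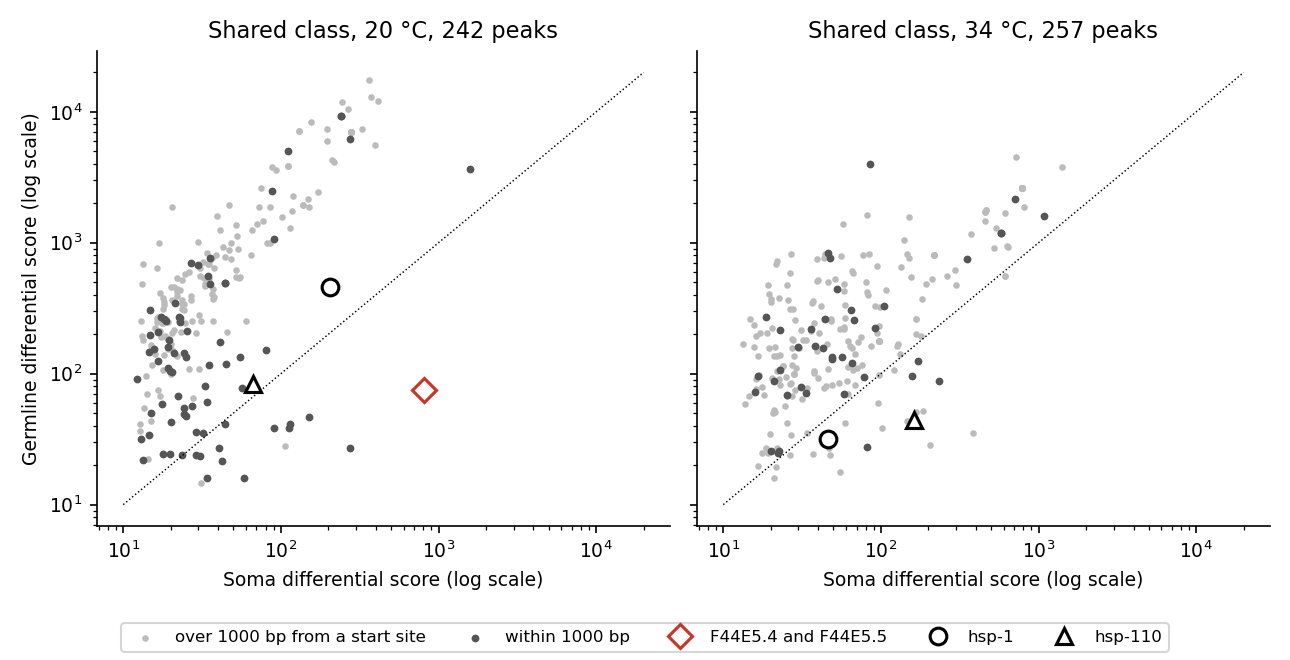
Germline against soma differential score of every shared-class peak at 20 °C and 34 °C (log scales, no unit), with a dotted line where the scores are equal. Dark points lie within 1000 bp of a start site. At 20 °C the F44E5 summit (diamond, 807.4 and 75.4) lies farther below the line than any other peak, and it is in the soma class and not plotted at 34 °C.

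In the deposited coordinates the listed soma region at F44E5.4 and F44E5.5 covered the promoter at 20 °C. After heat shock it covered the promoter with both genes. At 20 °C it ran from 11759036 to 11759810, which is 775 bp, and the germline region from 11759145 to 11759807, which is 663 bp. The soma region covered the gap, 276 bp of F44E5.4 (12.5% of the gene) and 149 bp of F44E5.5 (6.77%). After heat shock the soma region ran from 11756352 to 11762488, which is 6137 bp. It covered 100% of each gene and reached 755 bp beyond the 3' end of F44E5.4 and 627 bp beyond that of F44E5.5. It extended 3121 bp to the left and 3015 bp to the right of its only listed summit. Among the 289 soma regions listed after heat shock its width ranked 2, where the median was 508 bp, and among the 88 regions with a summit near a start site it ranked 1. At 20 °C the width ranked 32 of 275, where the median was 429 bp. Among the 100 regions with a summit near a start site it then ranked 6, with a median of 413 bp. Its soma differential score after heat shock was 549.3, rank 13 of 289 regions. Within the soma class the region of hsp-16.1 and hsp-16.48, with 728.6, was the only one with a higher score. No listed germline region lay within 1000 bp of either gene after heat shock. The germline lists hold regions at common summits, so a weaker loss there cannot be read from them.

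Soma regions that covered a whole gene were rare. Germline regions that did so were listed at both temperatures, none of them at F44E5.4, F44E5.5 or hsp-70. At 20 °C none of the 100 soma regions with a summit near a start site (0%) covered the whole gene of such a start site, and after heat shock 4 of 88 (4.55%) did. These were the regions of F44E5.4 with F44E5.5, of hsp-16.1 with hsp-16.48 (4915 bp), of hsp-16.2 with hsp-16.41 (2406 bp) and of C53C11.4 (549 bp). The hsp-16 genes encode small heat shock proteins, which hold unfolded proteins without ATP. The F44E5 region was the widest of the 4 and held 1 listed summit, between its 2 genes. The region at hsp-16.1 and hsp-16.48 held 2 summits, each upstream of its own copy of that gene pair. The soma region of the F44E5 pair was 7.92 times as wide after heat shock as at 20 °C. Over the 61 summit pairs near a start site with a soma region at both temperatures the median ratio was 1.11, and it was 0.927 over the 34 of these that were in the soma class at 34 °C. The ratio was larger at 3 of the 61 pairs, 1 at hsp-16.2 with hsp-16.41 and 2 at hsp-16.1 with hsp-16.48. The latter 2 shared 1 region at 34 °C that took the place of 2 regions at 20 °C, and against the summed width of those 2 its ratio was 4.25, below that of the F44E5 pair. Counted in that way, a choice made after seeing the data, the F44E5 ratio ranked 2 of 60 regions, after the 11.6 at hsp-16.2 with hsp-16.41. Over all 198 summit pairs with a soma region at both temperatures, near a start site or not, the F44E5 ratio ranked 9. The higher pairs away from start sites lay on chromosome IV and shared 1 region of 4549 bp at 34 °C. Names of the regions after heat shock carry a tag that those at 20 °C lack, and whether the regions were called with the same settings is not stated. Gene length and number of genes were not matched, and the heights of the signal across the region were not analysed here.

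**Figure D4:**
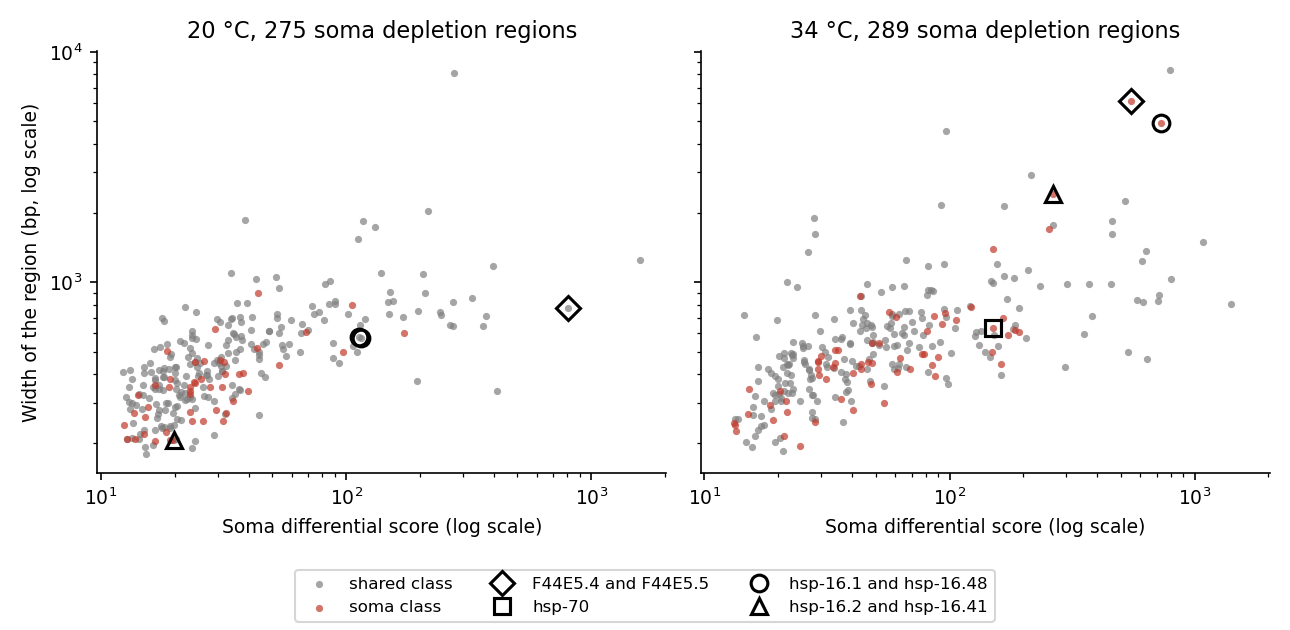
Width in bp (vertical axis, log scale) against differential score (horizontal axis, log scale, no unit) of every listed soma depletion region at 20 °C and 34 °C. Each point is a region, red in the soma class and grey in the shared class. The F44E5 region (diamond) has a width of 775 bp at 20 °C and 6137 bp at 34 °C, and hsp-70 (square) has 635 bp at 34 °C, near the rest of the regions.

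At hsp-70 HSF-1 binding was listed at a far lower score than at the F44E5 pair. At 20 °C the summit lay at position 9322614, 95 bp upstream of the start site, with a peak score of 93.3, rank 411 of 500. The score exceeded the median of the 32 unclassed summits, 67.1, and was below those of the soma class, 120.5, and the germline class, 211.8. No listed soma or germline region lay within 1000 bp of the gene at 20 °C. After heat shock the summit lay at 9322554, 35 bp upstream of the start site, with a peak score of 747.7, rank 307 of 441 and rank 61 of 129 near a start site. In the soma class it ranked 19 of 64. It was thus in the lower part of all summits and in the upper part of its class.

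The hsp-70 summit moved by 60 bp towards the start site between the temperatures. A shift of at least 60 bp was seen at 7 of the 350 summit pairs (2%), and the third quartile was 12 bp. Whether the low peak score at 20 °C bears on the position of the summit was not tested. Its soma region after heat shock ran from 9322198 to 9322832, which is 635 bp, against 6137 bp at the F44E5 pair. The width ranked 95 of 289. The region covered 322 bp of hsp-70 (14.7% of the gene) and 313 bp upstream of the start site, all of it inside uggt-2. Its differential score was 150.2, rank 49 of 289 regions and rank 12 of the 64 summits of the soma class. Among these 64 summits hsp-70 thus stood somewhat higher by its soma differential score than by its peak score, which ranked 19. The next summit was 60448 bp away at 20 °C and 497825 bp away after heat shock.

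Likeness to a locus was measured as the sum of absolute differences in the percentile of the peak score at the 2 temperatures, over sites near a start site with the same classes. The F44E5 site had 26 such candidates, all shared at 20 °C and soma after heat shock. Its own percentiles were 94.2 at 20 °C and 92.5 after heat shock. The closest sites were the 2 at hsp-16.1 with hsp-16.48 on chromosome V, a gene pair annotated in duplicate. Their percentiles were 79.2 and 79.6 at 20 °C and 84.6 and 83.9 after heat shock, for sums of 22.9 and 23.2. Then came R107.5 (sum 33.4), hsp-90 with C47E8.4 (54.1), where hsp-90 encodes the cytosolic HSP90, and the mitochondrial chaperonin gene hsp-60 with Y22D7AL.10 (60.2). The last of these stood at percentile 81.8 at 20 °C and 44.7 after heat shock. The hsp-70 site had no candidate, since no other site near a start site was unclassed at 20 °C and soma after heat shock.

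The other 9 genes of an HSP70 family list gave a mixed picture beside the 3 heat-inducible genes. The constitutive gene hsp-1 was in the shared class at both temperatures, with summits 421 and 384 bp upstream of its start site and peak scores of 21243.5 at 20 °C (rank 38 of 500) and 5628.7 after heat shock (rank 168 of 441). Its rank at 20 °C was close to that of the F44E5 summit, and after heat shock it was far lower. Its soma and germline differential scores were 205.4 and 458.3 at 20 °C and 46.2 and 31.9 after heat shock. The HSP110 gene hsp-110 was likewise shared at both temperatures, 233 and 218 bp upstream, with ranks of 83 and 136. The mitochondrial HSP70 gene hsp-6 had soma-class summits at both temperatures, at ranks 265 and 409. The endoplasmic reticulum gene hsp-4 had a summit at 34 °C alone, of the soma class, 73 bp upstream and at rank 356. The other BiP gene hsp-3 and F11F1.1, T14G8.3, T24H7.2 and stc-1 had no summit within 1000 bp at either temperature. Of the 12 genes of the list 6 had a summit at 20 °C and 7 after heat shock, of which 5 were in the soma class and 2 in the shared class. The 3 heat-inducible genes were thus 3 of the 5 soma-class genes of the family, with F44E5.4 and F44E5.5 counted by the same summit. Among family members bound after heat shock the F44E5 summit had the highest rank and hsp-6 the lowest. The soma region was 468 bp wide at hsp-4, 396 bp at hsp-110, 980 bp at hsp-1 and 397 bp at hsp-6, so in the family only that of the F44E5 pair exceeded 1000 bp after heat shock.

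**Figure D5:**
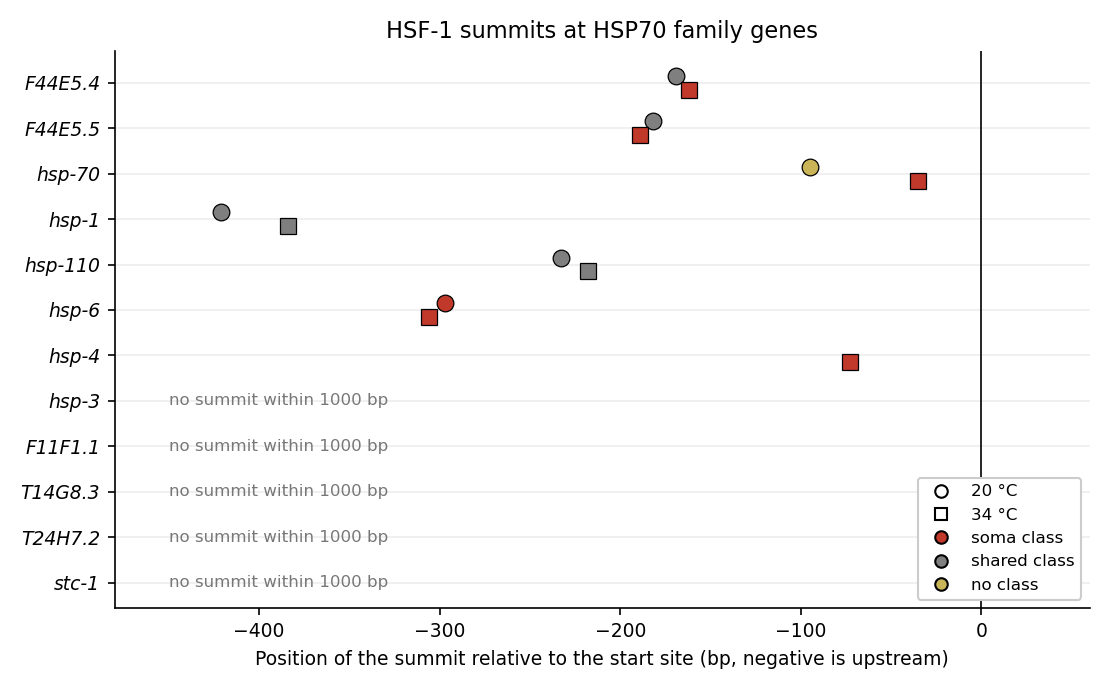
Position of HSF-1 summits relative to the start site (horizontal axis, bp, negative values upstream) at the 12 genes of the HSP70 family list. Circles are 20 °C, squares are 34 °C, and the fill gives the class. All 3 heat-inducible genes are in the soma class at 34 °C, hsp-1 and hsp-110 stay in the shared class, and the summit nearest to a start site is that of hsp-70 at 34 °C, 35 bp upstream.

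Partners of HSP70 were also listed. Of 16 co-chaperone genes 8 had a summit at 20 °C (6 in the shared, 1 in the soma and 1 in the germline class) and 7 after heat shock (6 in the soma and 1 in the shared class). The J-domain gene dnj-12, the BAG gene bag-1, and sti-1 and sgt-1, whose products dock on HSP70 and HSP90, went from shared to soma as the F44E5 pair did. The HSP70-interacting protein gene hip-1 went from germline to soma, dnj-13 stayed shared, the BAG gene unc-23 stayed soma and dnj-19 had a summit only at 20 °C. Their best rank after heat shock was 180 of 441, at dnj-13, against 34 for the F44E5 summit and 307 for hsp-70. Of 14 small heat shock protein genes 7 had a summit at 20 °C, all in the shared class, and 6 after heat shock, all in the soma class. The 6 were hsp-16.2, hsp-16.41 and the duplicated pair of hsp-16.1 with hsp-16.48, and the gene listed at 20 °C alone was sip-1.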

How the data were processed

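HSF-1 ChIP-seq was read from the lists deposited by the authors. The submitters' processing notes name the aligner Bowtie2 and the peak caller MACS2 with no version. Neither the genome build nor the settings nor any pooling of replicates is stated in these sources. The peak score and the differential score are the authors' own values per the file headers. Since the header of the latter, a negative logarithm of a p-value, names no base, it was treated as a score. Summits were called in the soma strain, per their names. Starts counted from 0 were raised by 1, and 8 exact repeats were dropped.

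Summits were assigned to every gene with a protein-coding start site within 1000 bp in the Ensembl release 115 annotation of WBcel235 (19973 nuclear genes, 19956 of them named alike in the table of gene names). Of 64 soma-class summits at 34 °C, 36 lay within 300 bp of a start site in the deposited coordinates, against 27 after a move of 500 bp leftwards and 19 after one rightwards. These counts were 6, 2 and 2 on chromosome I and 5, 7 and 3 on chromosome II. The fit was thus not resolved on chromosome II, and the distances at F44E5.4 and F44E5.5 rest on it. Percentiles are the share of summits at or below a score.

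The genes and lists were chosen with earlier results of these data known. Named genes were the members, the HSP70 family list, bound genes of the co-chaperone and small heat shock protein lists, and the genes of the 5 sites most like each locus. The others were chosen after their values were seen: uggt-2 and F44E5.2 as host and neighbour, and C53C11.4 among 4 whole-gene soma regions. Of 14 small heat shock protein symbols 12 matched, covering 14 genes. Python 3.11.15 and pandas 2.3.3 were used. No sequences were used here, so heat shock elements and sequence identity were not examined.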

Additional observations from a re-analysis of the deposited data

How the results depend on the processing

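The 3 genes kept a summit at both temperatures with start site distances of 500 and 2000 bp, and with coordinates moved by 500 bp either way, which a window of 1000 bp absorbs. With only the nearest start site of each summit, 2 genes were left at each temperature, because the F44E5 summit was then given to F44E5.4 alone. With only the upper part of each summit file, from its median score upwards, 2 were left at each temperature, because hsp-70 fell out. The class counts of 3 soma genes after heat shock and 2 shared genes at 20 °C were the same in the 3 alternatives run for each. Percentiles of the peak score depend on the reference. For the F44E5 summit they were 97.4 among summits near a start site and 88.0 within its class at 20 °C (94.2 among all), and 95.3 and 100 after heat shock (92.5 among all). For hsp-70 they were 25.8 and 78.1 at 20 °C (18 among all), and 53.5 and 71.9 after heat shock (30.6 among all). Sites near a start site alone were an alternative chosen after seeing the data. Among them the F44E5 region width after heat shock and the F44E5 score ratio at 20 °C each ranked 1. The width of the hsp-70 region after heat shock was then 27 of 88. No paired analysis was possible because the lists give no value for single libraries. Leaving out a replicate was not possible for the same reason, and the planned searches for heat shock elements were not run.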
